A study of Mus musculus with 6 samples.

Results

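The 33 genes described here encode the enzymes of the tricarboxylic acid (TCA) cycle, the assembly factors of succinate dehydrogenase, the enzymes of the malate-aspartate shuttle and the enzymes that feed carbon into the cycle or draw it off. They were taken by symbol from a given list, with no threshold on their values, and all 33 were among the 23808 genes of the table and among the 11456 that were tested, those averaging 1 FPKM or more. The data are mRNA-seq values from hearts of wild-type (WT) female mice in 2 groups, high-fat diet (HFD) and normal chow (NC). Each diet was given from 4 to 12 weeks of age, with 3 libraries a group numbered 1 to 3. Where 3 values of a diet are given, they stand in the order of libraries 1, 2 and 3. Diet is the only difference between the groups that the labels give. The sources used here give neither the strain nor the make-up of the fat diet, and the title of the series speaks of mice with polycystic ovary syndrome, while the labels of these 6 libraries name no treatment other than diet. Values are FPKM, fragment counts corrected for gene length and for the size of the library, so that levels can be set side by side between genes.

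In the TCA cycle, acetyl-CoA from fatty acids, glucose and ketone bodies is joined to oxaloacetate and oxidised step by step, and the electrons released pass as NADH and FADH2 to the respiratory chain. The heart takes most of its ATP from this route and is rich in mitochondria. The inner mitochondrial membrane is not permeable to NADH, and the malate-aspartate shuttle carries the reducing equivalents of cytosolic NADH across it with a malate dehydrogenase and an aspartate aminotransferase on each side. Anaplerotic reactions refill the pool of cycle intermediates, and cataplerotic reactions withdraw from it.

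None of the 33 genes differed between the diets beyond the spread between libraries. With limma and Benjamini-Hochberg adjustment over all tested genes, 0 of 33 passed an adjusted p of 0.05, against a share of 0% of all tested genes, and every adjusted p of the 33 was 0.9998. At an unadjusted p of 0.05 the count was 0 of 33, against 3.62% of all tested genes, and the smallest unadjusted p was 0.0698, that of Gpt. The mean of log2(FPKM + 1) was lower on HFD in 25 of the 33 genes and higher in 8, where 53.1% of all tested genes were lower. The median log2 fold change, HFD minus NC on log2(FPKM + 1), was −0.14 over the 33 genes and −0.02 over all tested genes. In 2 genes, Sdhb and Me2, every HFD library lay below every NC library, 6.06% of the 33 against 4.88% of all tested genes. In 0 genes did every HFD library lie above every NC library, against 3.25% of all tested genes, and in 31 genes the diets overlapped.

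The 95% intervals of all 33 genes held 0, and 32 of them lay within 1 of 0 on the log2(FPKM + 1) scale. The exception was Mdh1, whose interval reached down to −1.10. For genes at low levels this scale understates the fold change in FPKM, so the intervals of genes such as Me2 and Sdhaf3 set no limit of that size on it. Whether the 3 libraries of each diet are 3 different mice is not said in the labels, so p-values and intervals measure a spread among libraries that may be technical only. In whole tissue, fewer cells of a type and less RNA per cell cannot be told apart.

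**Figure D1:**
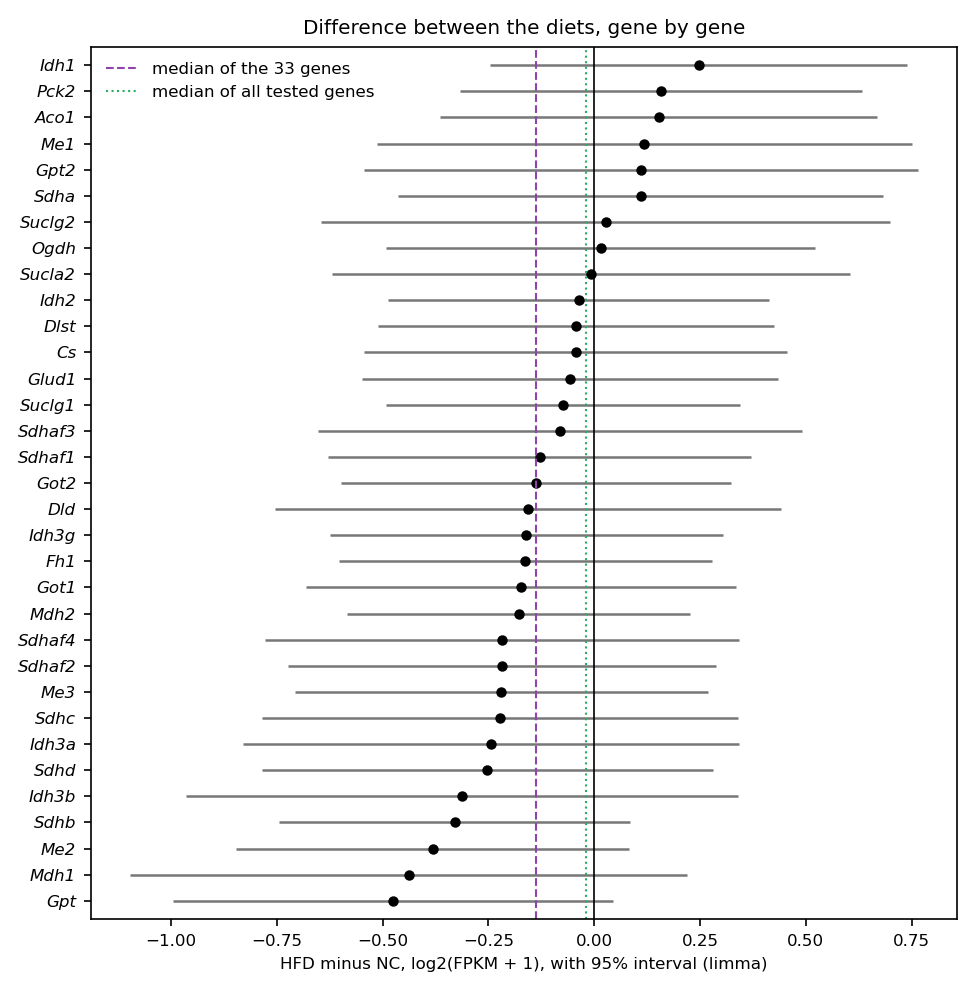
Log2 fold change of each of the 33 genes (HFD minus NC on log2(FPKM + 1), points) with its 95% interval from limma (lines), ordered by fold change. All 33 intervals cross 0, and the median of the 33 genes (dashed) lies at −0.14, against −0.02 for all tested genes (dotted).

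The lower side of the 33 genes rested largely on 1 library, HFD 2. This library held the lowest of the 6 values in 24 of the 33 genes, and HFD 3 held the highest in 15. The shares of all tested genes with these placings were not counted. HFD 3 was high across the table, with a median deviation from its diet mean of 0.18 over tested genes with a GC value. In HFD 2 that median was −0.03. Without HFD 2, 14 of the 33 genes were lower on HFD and the median log2 fold change was 0.02, beside −0.01 over all tested genes. Without HFD 3, 30 were lower and the median was −0.24, beside −0.11 over all tested genes. The share of all tested genes lower in these 2 fits was not counted. Scaling each library to the same sum of nuclear-encoded genes left 19 of 33 lower with a median of −0.05, beside 0.05 over all tested genes. Quantile normalization left 20 lower with a median of −0.05, beside 0.01. Median-ratio scaling changed little, with 24 lower and a median of −0.13, beside −0.01.

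The summed FPKM of the 33 genes was 4507, 3731 and 5402 in the HFD libraries, against 5477, 5452 and 4388 in the NC libraries. HFD 2 and NC 3 were thus the low libraries of their diets, and the diets overlapped. The 33 genes made up 0.782, 0.542 and 0.763% of the summed FPKM in the HFD libraries and 0.741, 0.785 and 0.611% in the NC libraries.

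Across all genes, the summed FPKM was between 576334 and 708120 in the HFD libraries and between 694956 and 739406 in the NC libraries. The lowest belonged to HFD 1, in which 4 mitochondrially encoded genes were listed at 0. Read counts were not recovered, so the depth behind each value is unknown. The labelled tissue was checked by 12 cardiomyocyte markers, such as Myh6 and Tnnt2, which were all listed above 0 in all 6 libraries. They summed to 33040 to 37030 FPKM in the HFD libraries and to 37020 to 47980 FPKM in the NC libraries. Of these 12 markers 11 were lower on HFD, with a median log2 fold change of −0.24. Of 12 atrial markers 11 were lower, and Bmp10 was listed at 0 in HFD 1. The atrial markers summed to 1793, 605 and 7886 FPKM in the HFD libraries, against 4042, 624 and 14780 FPKM in the NC libraries. The sum was lowest in HFD 2 and highest in NC 3, and within HFD it was highest in HFD 3. Their median log2 fold change was −0.48. Single differences ran from −1.42 (SE 1.67) in Bmp10 to 0.06 (SE 1.29) in Sln. Those of Myl7 and Clu were −0.12 (SE 1.17) and −0.74 (SE 0.45). Of 10 fibroblast markers 9 were lower, with a median log2 fold change of −0.49 and sums of 766 to 1358 FPKM on HFD and 746 to 1487 FPKM on NC. Of 6 macrophage markers 6 were lower, with a median of −0.58 and sums of 130 to 171 FPKM on HFD and 181 to 272 FPKM on NC. None of the fibroblast and macrophage markers was listed at 0, and 0 markers of these lists passed the adjusted threshold. By limma, 3 of 10 fibroblast and 4 of 6 macrophage markers had an unadjusted p under 0.05, beside 3.62% of all tested genes. The same held for 1 of 12 cardiomyocyte markers, Tnni3, and for 0 of 12 atrial markers. Other lists were not all lower, where 53.1% of all tested genes were lower. Of 10 endothelial markers 9 were higher on HFD, with a median of 0.14. Of 5 tested erythroid markers 5 were higher, with a median of 0.08. Of 10 tested adipocyte markers 8 were lower, with a median of −0.37, and of 4 tested skeletal muscle markers 2 were lower. In these lists too 0 markers passed the adjusted threshold. By limma, Fabp4, which stands in the endothelial and adipocyte lists, and the skeletal muscle marker Tnni2 had an unadjusted p under 0.05. The part of the shifts of all these lists in the values of the 33 genes was not tested.

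The 33 genes differed widely in level. Mdh2 was the most abundant, with a mean of 699 FPKM over the 6 libraries, and was followed by Mdh1 at 597, Sdhb at 595 and Idh2 at 531 FPKM. Idh1, the cytosolic NADP-dependent isocitrate dehydrogenase, had a mean of 13.9 FPKM. At the low end were Pck2 at 2.77, Me2 at 1.46 and Sdhaf3 at 1.42 FPKM.

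**Figure D2:**
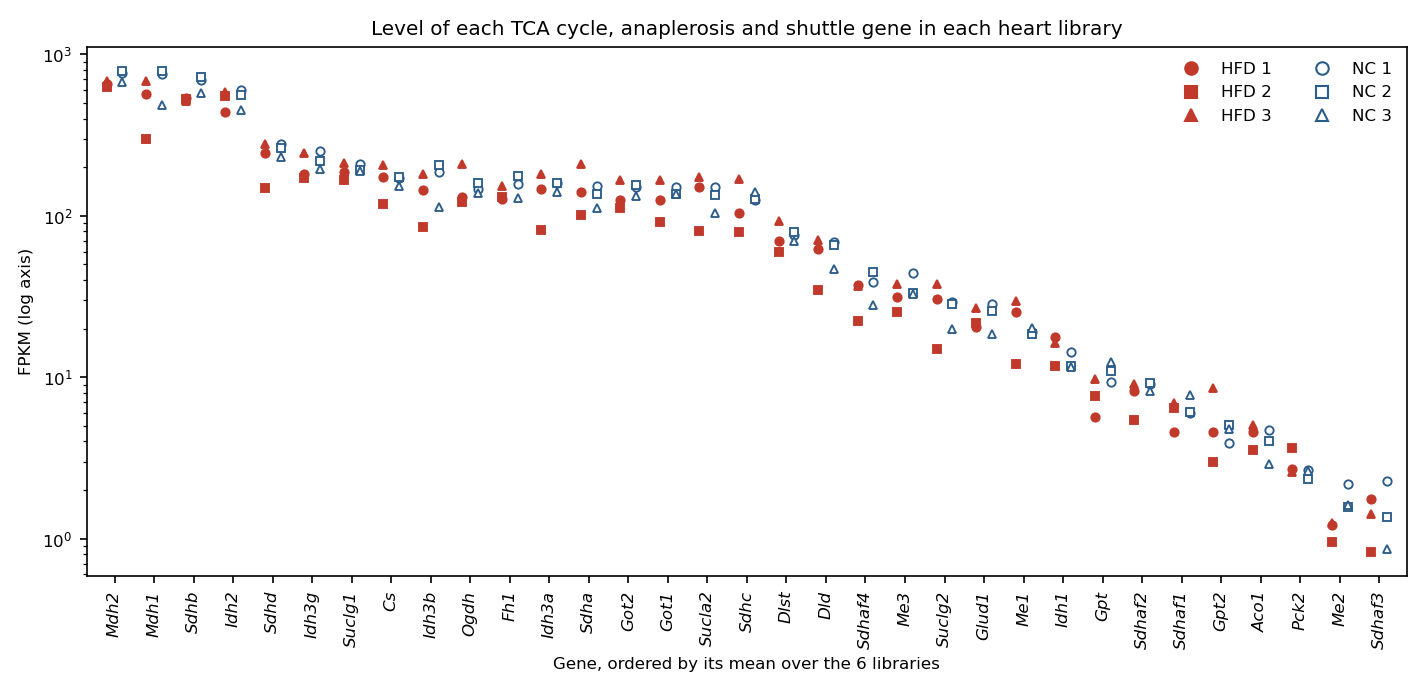
FPKM (log axis) of each of the 33 genes in each library, ordered by the mean over the 6 libraries, with HFD libraries as filled red symbols left of the NC libraries in open blue symbols. Levels run from 699 FPKM for Mdh2 to 1.42 FPKM for Sdhaf3 (means), and the square of HFD 2 is the lowest symbol in 24 genes.

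Among the 15 cycle enzymes other than succinate dehydrogenase, 11 were lower and 4 higher on HFD, with a median log2 fold change of −0.04, and 0 passed the test. Cs, the citrate synthase that opens the cycle, was at 173, 118 and 206 FPKM in the HFD libraries, against 171, 175 and 153 FPKM in the NC libraries. The HFD libraries thus lay on both sides of the NC libraries. HFD 2 was also the lowest library for the subunits of the NAD-dependent isocitrate dehydrogenase, an allosterically controlled step of the cycle. Idh3a, its catalytic subunit, was at 146, 81.8 and 181 FPKM in the HFD libraries, against 159, 161 and 141 FPKM in the NC libraries. Idh3b was at 146, 85.4 and 182 FPKM in the HFD libraries, against 186, 205 and 114 FPKM in the NC libraries, and Idh3g at 183, 171 and 247 FPKM, against 252, 220 and 194 FPKM. The highest value of Idh3a was that of HFD 3, while those of Idh3b and Idh3g were of NC libraries.

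Idh2, the mitochondrial NADP-dependent isocitrate dehydrogenase and a source of mitochondrial NADPH, did not have its lowest value in HFD 2. It was at 441, 550 and 581 FPKM in the HFD libraries, against 601, 561 and 450 FPKM in the NC libraries. HFD 1 was its lowest library and the diets overlapped. Its cytosolic counterpart Idh1 was at 17.7, 11.7 and 16.3 FPKM in the HFD libraries, against 14.4, 11.8 and 11.5 FPKM in the NC libraries. The HFD mean of Idh1 was 15.3 ± 3.15 FPKM and the NC mean 12.6 ± 1.60 FPKM (SD, n = 3 each). The difference of 0.25 in log2 (SE 0.23, limma unadjusted p = 0.297) was the highest of the 33 genes and within the spread between libraries. Aco1, which serves as the cytosolic aconitase or, without its iron-sulphur cluster, as an iron regulatory protein, was at 4.59, 3.55 and 5.08 FPKM in the HFD libraries, against 4.72, 4.05 and 2.90 FPKM in the NC libraries. Its log2 fold change was 0.15 (SE 0.24, limma unadjusted p = 0.534), and without NC 3 it was −0.002.

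The 2-oxoglutarate dehydrogenase complex, which makes succinyl-CoA, is built from Ogdh, Dlst and Dld. Ogdh was at 131, 121 and 209 FPKM in the HFD libraries, against 147, 159 and 138 FPKM in the NC libraries. Dlst was at 70.0, 59.6 and 92.6 FPKM on HFD, against 76.4, 79.4 and 69.9 FPKM on NC. Dld, which also serves the pyruvate and branched-chain ketoacid dehydrogenases, was at 61.8, 34.7 and 70.9 FPKM on HFD, against 68.7, 65.7 and 47.1 FPKM on NC. In these genes too HFD 2 was the lowest and HFD 3 the highest of the 6 libraries.

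Succinyl-CoA ligase pairs the shared subunit Suclg1 with an ATP-specific beta subunit, Sucla2, or a GTP-specific subunit, Suclg2. Sucla2 was at 150, 80.7 and 174 FPKM in the HFD libraries, against 152, 135 and 105 FPKM in the NC libraries. Suclg2 was at 30.4, 15.0 and 38.0 FPKM in the HFD libraries, against 29.1, 28.4 and 19.9 FPKM in the NC libraries. Both genes had the lowest value of each diet in the same libraries, HFD 2 and NC 3. Suclg1 was flatter, at 186, 167 and 211 FPKM on HFD, against 210, 191 and 191 FPKM on NC. Fh1, the fumarase, was at 127, 131 and 153 FPKM on HFD, against 158, 175 and 129 FPKM on NC, and again the diets overlapped.

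Mdh2, the mitochondrial malate dehydrogenase, closes the cycle and also works in the shuttle. It was at 655, 630 and 681 FPKM in the HFD libraries, against 770, 787 and 673 FPKM in the NC libraries. Only HFD 3 and NC 3 crossed, so that the diets overlapped by a single pair of libraries. The HFD mean was 655 ± 25.4 FPKM and the NC mean 743 ± 61.6 FPKM (SD, n = 3 each). Its log2 fold change was −0.18 (SE 0.19, limma unadjusted p = 0.357), and −0.05 after quantile normalization. By GENCODE annotation of mm10, Mdh2 spans 135778480 to 135790398 of chromosome 5, plus strand.

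Succinate dehydrogenase, complex II of the respiratory chain, is the only cycle enzyme fixed in the inner membrane. It has 4 subunits, of which 3 were lower and 1 higher on HFD, with a median log2 fold change of −0.24 and 0 past the test. Sdhb, the iron-sulphur subunit, was at 536, 530 and 512 FPKM in the HFD libraries, against 695, 727 and 572 FPKM in the NC libraries. All 3 HFD libraries lay below all 3 NC libraries and close to each other, while NC 3 was the low library of its diet. The HFD mean was 526 ± 12.7 FPKM and the NC mean 665 ± 81.7 FPKM (SD, n = 3 each). The log2 fold change was −0.33 with a 95% interval of −0.75 to 0.09, which did not pass the test (SE 0.19, limma unadjusted p = 0.109, adjusted p = 0.9998). It lay between −0.43 and −0.26 when single libraries were left out, and at −0.18 after quantile normalization. Sdhb spans 140961203 to 140979193 of chromosome 4, plus strand.

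The other subunits kept the layout with HFD 2 low and HFD 3 high. Sdha, the flavoprotein that oxidises succinate, was at 140, 101 and 209 FPKM in the HFD libraries, against 154, 136 and 112 FPKM in the NC libraries. The HFD mean was 150 ± 55.0 FPKM and the NC mean 134 ± 20.8 FPKM (SD, n = 3 each). The log2 fold change of Sdha was 0.11 (SE 0.26, limma unadjusted p = 0.684), but it was −0.16 without HFD 3 and −0.01 without NC 3. The membrane anchor Sdhc was at 104, 79.9 and 169 FPKM on HFD, against 125, 127 and 141 FPKM on NC, and the anchor Sdhd at 244, 148 and 277 FPKM on HFD, against 279, 263 and 231 FPKM on NC. The HFD libraries of Sdhc lay on both sides of the NC libraries, and those of Sdhd lay between the NC values or below them. Within 1 enzyme complex, therefore, HFD 2 was the lowest library for Sdha, Sdhc and Sdhd but stood in the middle of its own diet for Sdhb.

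All 4 assembly factors of succinate dehydrogenase were lower on HFD, with a median log2 fold change of −0.17 and 0 past the test, and they were expressed well below the subunits. Sdhaf4, which acts in the assembly of the flavoprotein with the iron-sulphur subunit, was the most abundant. It was at 37.0, 22.3 and 36.6 FPKM in the HFD libraries, against 38.9, 44.6 and 27.9 FPKM in the NC libraries. HFD 2 was again the lowest, and the diets overlapped. The HFD mean was 32.0 ± 8.37 FPKM and the NC mean 37.1 ± 8.51 FPKM (SD, n = 3 each). The difference of −0.22 in log2 (SE 0.26, limma unadjusted p = 0.414) was 0.01 without HFD 2. Sdhaf2, which promotes attachment of FAD to the flavoprotein, was at 8.22, 5.46 and 9.09 FPKM on HFD, against 9.10, 9.19 and 8.21 FPKM on NC. Sdhaf1 and Sdhaf3, which act in maturation of the iron-sulphur subunit, were at 4.6 to 6.93 FPKM and 0.827 to 1.75 FPKM on HFD, against 6.0 to 7.72 FPKM and 0.859 to 2.28 FPKM on NC. In all 4 factors the ranges of the diets overlapped.

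Promoters of these genes were searched because some genes of complex II and the cycle are known targets of NRF1 and of oestrogen-related receptors, and because the genes shared a library pattern. RefSeq promoters (GRCm38.p6, from 250 bases before to 50 bases after the start) were found for 29 of the 33 genes, 36 promoters in all. Gpt, Idh3a, Me2 and Sdhc had no entry. The NRF1 motif GCGCNTGCGC, searched on both strands, was in 6 of the 36 promoters, those of Dld, Sdha, Sdhaf3, Sdhaf4, Sdhd and Sucla2, and in 4.6% of all 32851 promoters. The receptor motif TNAAGGTCA was in 1 of the 36, that of Sdhd, and in 1.28% of all promoters. Its shorter core AAGGTCA, which is part of the longer motif, was in 3 of the 36, those of Got1, Ogdh and Sdhd, and in 4.72% of all promoters. A match is a stretch of letters and not a measured binding site. The sequences below are shown because Sdha held 3 NRF1 matches, Sdhd held 1 match to each of both long motifs, and Sucla2 was among the genes lowest in HFD 2. Each reads 5′ to 3′ along the gene's strand, with capitals marking the matches, from chr13:74350191-74350490 (minus strand), chr9:50603800-50604099 (minus strand) and chr14:73552536-73552835 (plus strand).
Sdha: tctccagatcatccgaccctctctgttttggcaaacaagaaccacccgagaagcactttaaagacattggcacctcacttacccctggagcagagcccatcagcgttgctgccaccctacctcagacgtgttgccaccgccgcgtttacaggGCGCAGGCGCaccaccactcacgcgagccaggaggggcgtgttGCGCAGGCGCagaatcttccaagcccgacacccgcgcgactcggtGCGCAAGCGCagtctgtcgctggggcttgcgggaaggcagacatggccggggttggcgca
Sdhd: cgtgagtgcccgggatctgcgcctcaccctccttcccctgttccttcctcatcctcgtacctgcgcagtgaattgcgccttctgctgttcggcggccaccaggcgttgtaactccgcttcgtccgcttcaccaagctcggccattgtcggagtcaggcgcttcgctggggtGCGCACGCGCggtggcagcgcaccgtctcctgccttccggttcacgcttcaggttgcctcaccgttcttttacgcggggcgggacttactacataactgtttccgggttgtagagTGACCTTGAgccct
Sucla2: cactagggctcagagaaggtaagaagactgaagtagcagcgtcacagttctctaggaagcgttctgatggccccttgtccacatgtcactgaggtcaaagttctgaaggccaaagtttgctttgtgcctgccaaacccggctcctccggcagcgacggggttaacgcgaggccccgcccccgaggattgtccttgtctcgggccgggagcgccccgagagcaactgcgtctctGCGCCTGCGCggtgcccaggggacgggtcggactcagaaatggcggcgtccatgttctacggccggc

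The malate-aspartate shuttle works with Mdh1 and Got1 in the cytosol and Mdh2 and Got2 in the matrix. All 4 genes were lower on HFD, with a median log2 fold change of −0.18 and 0 past the test. Mdh1, the cytosolic malate dehydrogenase, was at 568, 301 and 683 FPKM in the HFD libraries, against 759, 788 and 486 FPKM in the NC libraries. HFD 2 was the lowest and NC 2 the highest library, while HFD 3 lay above NC 3. The HFD mean was 517 ± 196 FPKM and the NC mean 678 ± 167 FPKM (SD, n = 3 each). The log2 fold change was −0.44 (SE 0.30, limma unadjusted p = 0.172) and was −0.09 without HFD 2. Mdh1 spans 21556787 to 21572367 of chromosome 11, minus strand.

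The aspartate aminotransferases varied less between libraries. Got1 was at 126, 92.0 and 168 FPKM in the HFD libraries, against 150, 137 and 136 FPKM in the NC libraries. Got2 was at 125, 111 and 167 FPKM in the HFD libraries, against 150, 156 and 133 FPKM in the NC libraries. In both genes the NC libraries lay inside the range of the HFD libraries. The carriers of the shuttle and of cycle intermediates were counted as a list of 8 genes, of which 6 were tested. Of these 5 were lower and 1 higher, with a median log2 fold change of −0.11 and 0 past the test. The 3 with the smallest p were Slc25a1, the citrate carrier (−0.37), Slc25a11, the malate and 2-oxoglutarate carrier of the shuttle (−0.20), and Slc25a10, the dicarboxylate carrier (−0.18).

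Among the 7 genes of anaplerosis and cataplerosis, 4 were lower and 3 higher on HFD, with a median log2 fold change of −0.06 and 0 past the test. Gpt, the cytosolic alanine aminotransferase that interconverts pyruvate and glutamate with alanine and 2-oxoglutarate, had the lowest log2 fold change and the smallest p of the 33 genes. It was at 5.67, 7.65 and 9.70 FPKM in the HFD libraries, against 9.31, 10.9 and 12.5 FPKM in the NC libraries. HFD 3 lay above NC 1, and the other HFD libraries lay below all NC libraries. The HFD mean was 7.67 ± 2.01 FPKM and the NC mean 10.9 ± 1.60 FPKM (SD, n = 3 each). The log2 fold change of Gpt was −0.48 with a 95% interval of −0.99 to 0.04 (SE 0.24, limma unadjusted p = 0.0698, adjusted p = 0.9998), and it stayed between −0.64 and −0.30 when single libraries were left out. Gpt spans 76695716 to 76699686 of chromosome 15, plus strand. Gpt2, the mitochondrial form, was at 4.58, 3.0 and 8.63 FPKM on HFD, against 3.89, 5.09 and 4.75 FPKM on NC, with HFD 2 lowest and HFD 3 highest.

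The malic enzymes convert malate to pyruvate. Me2, the mitochondrial NAD-dependent form, was low but separated the diets, at 1.21, 0.948 and 1.25 FPKM in the HFD libraries, against 2.19, 1.57 and 1.61 FPKM in the NC libraries. Its HFD mean was 1.14 ± 0.164 FPKM and its NC mean 1.79 ± 0.349 FPKM (SD, n = 3 each). The log2 fold change was −0.38 (SE 0.21, limma unadjusted p = 0.0977, adjusted p = 0.9998), and at a level so near the pseudocount it understates the ratio. Me3, the mitochondrial NADP-dependent form and the most abundant of the 7 genes, was at 31.6, 25.4 and 37.6 FPKM on HFD, against 44.3, 33.3 and 32.8 FPKM on NC. The diets overlapped in Me3, with a log2 fold change of −0.22 (SE 0.22, limma unadjusted p = 0.347). Me1, the cytosolic NADP-dependent form, was at 25.3, 12.1 and 29.7 FPKM on HFD, against 19.1, 18.5 and 20.1 FPKM on NC, so that HFD 1 and HFD 3 lay above all NC libraries and HFD 2 below them.

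Glud1, the glutamate dehydrogenase, was at 20.6, 21.6 and 26.9 FPKM in the HFD libraries, against 28.3, 25.6 and 18.6 FPKM in the NC libraries. The diets overlapped, and HFD 2 stood in the middle of its diet. Pck2, the mitochondrial phosphoenolpyruvate carboxykinase, was at 2.69, 3.65 and 2.60 FPKM on HFD, against 2.67, 2.35 and 2.62 FPKM on NC. It was the only member of the 33 that was highest in HFD 2, and its log2 fold change was 0.16 (SE 0.22, limma unadjusted p = 0.484), or 0.04 without HFD 2.

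Isozyme ratios were taken within each library, where a scaling factor of the library cancels. The diets were compared in 7 ratios by an exact two-sided permutation test, whose smallest possible p is 0.1. That lies above the threshold used for the genes, so the test could call no ratio and cannot decide whether any differed. The values of the diets overlapped in every ratio. The raw exact p-values lay between 0.3 and 0.9, with Benjamini-Hochberg adjusted values of 0.817 for 6 of the ratios and 0.9 for the last. Differences between the diets are given for these ratios on log2(FPKM + 1). Mdh1 over Mdh2 was 0.866, 0.477 and 1.0 in the HFD libraries, against 0.986, 1.0 and 0.722 in the NC libraries. The difference of −0.26 (exact permutation p = 0.7) turned to 0.06 without HFD 2. Idh2 over Idh3a was 3.03, 6.72 and 3.21 in the HFD libraries, against 3.78, 3.49 and 3.19 in the NC libraries. HFD 2 stood apart in both ratios, and the difference of 0.21 for Idh2 over Idh3a (exact permutation p = 0.9) turned to −0.16 without it.

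Gpt over Gpt2 was 1.24, 2.55 and 1.12 in the HFD libraries, against 2.39, 2.14 and 2.64 in the NC libraries. HFD 1 and HFD 3 lay below all NC libraries and HFD 2 among them. The difference was −0.59 (exact permutation p = 0.3), and −0.89 without HFD 2. Me1 over Me3 was 0.802, 0.477 and 0.788 on HFD, against 0.431, 0.556 and 0.613 on NC, a difference of 0.34 (exact permutation p = 0.3). Here too HFD 1 and HFD 3 stood on one side of the NC libraries and HFD 2 among them. Idh1 over Idh2 was 0.0402, 0.0213 and 0.0281 on HFD, against 0.0240, 0.0210 and 0.0256 on NC, a difference of 0.28 (exact permutation p = 0.4). The flattest ratios were Got1 over Got2, which lay between 0.828 and 1.01 on HFD and between 0.882 and 1.02 on NC, and Sucla2 over Suclg2, which lay between 4.59 and 5.39 on HFD and between 4.76 and 5.25 on NC.

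**Figure D3:**
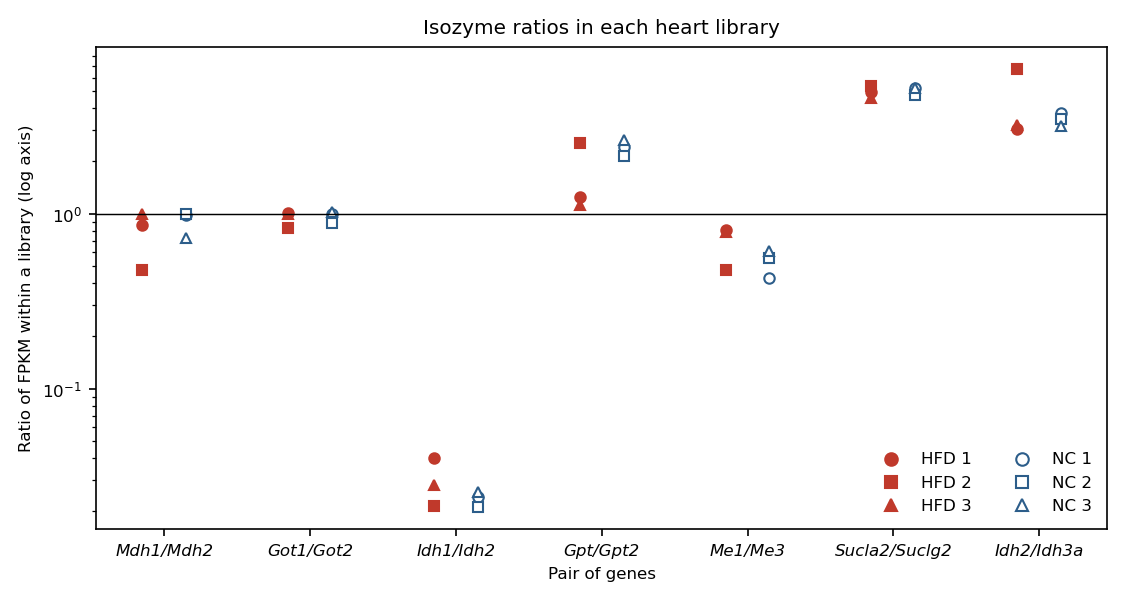
Ratio of the FPKM of paired genes within each library (log axis), with the HFD libraries (filled) left of the NC libraries (open); the line marks a ratio of 1. HFD 2 (filled square) stands apart from the other libraries in Mdh1 over Mdh2 at 0.477 and in Idh2 over Idh3a at 6.72, while Sucla2 over Suclg2 stays between 4.59 and 5.39 in all 6 libraries.

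The spread within a diet was described by the deviation of each library from the mean of its diet on log2(FPKM + 1). The median deviation over the 33 genes was 0.02, −0.33 and 0.33 in the HFD libraries, and 0.09, 0.07 and −0.14 in the NC libraries. Over all tested genes with a GC value it was −0.14, −0.03 and 0.18 in the HFD libraries and 0.09, −0.11 and 0.02 in the NC libraries. HFD 2 was below its diet mean in 28 of the 33 genes, HFD 3 in 2 and NC 3 in 27. The genes lowest in HFD 2 were Suclg2 at −0.75, Me1 at −0.74, Mdh1 at −0.70, Sucla2 at −0.66 and Idh3a at −0.65. Those at the other end were Pck2 at 0.23, Sdhaf1 at 0.11, Idh2 at 0.08, Gpt at 0.02 and Sdhb at 0.01.

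**Figure D4:**
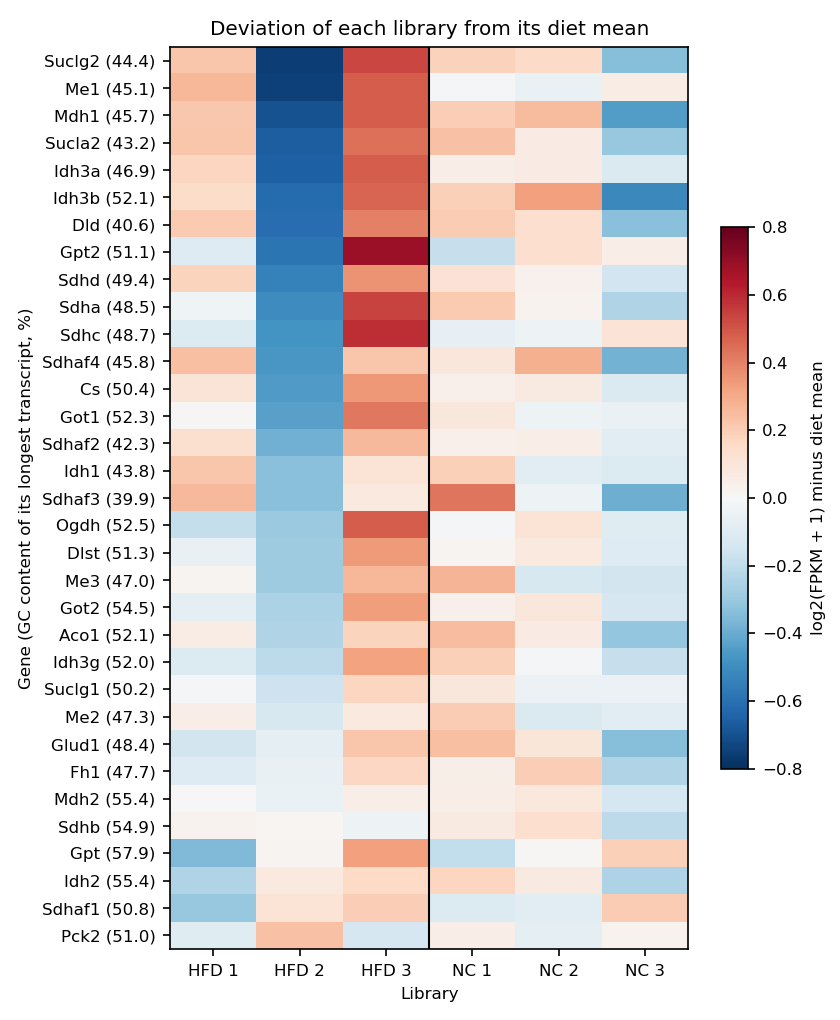
Deviation of each library from the mean of its diet on log2(FPKM + 1) (colour) for the 33 genes, ordered by their deviation in HFD 2, with the GC content of the longest transcript in brackets. HFD 2 runs from −0.75 for Suclg2 to 0.23 for Pck2 and is below its diet mean in 28 genes; NC 3 is below its diet mean in 27.

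These deviations went with the GC content of the transcripts. Over the 33 genes, Spearman's rho between GC content and deviation was −0.68, 0.55 and −0.14 in the HFD libraries, and −0.39, 0.10 and 0.27 in the NC libraries. Over 10774 tested genes it was −0.46, 0.46 and −0.15 in the HFD libraries and −0.39, −0.16 and 0.39 in the NC libraries. Genes of a library share its preparation and scaling and are not independent, so these values are a description. The deviations of the 3 libraries of a diet sum to 0, so their values of rho are not independent either. The 10 genes lowest in HFD 2 had a median GC content of 46.3%, and the 10 highest had a median of 50.9%.

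**Figure D5:**
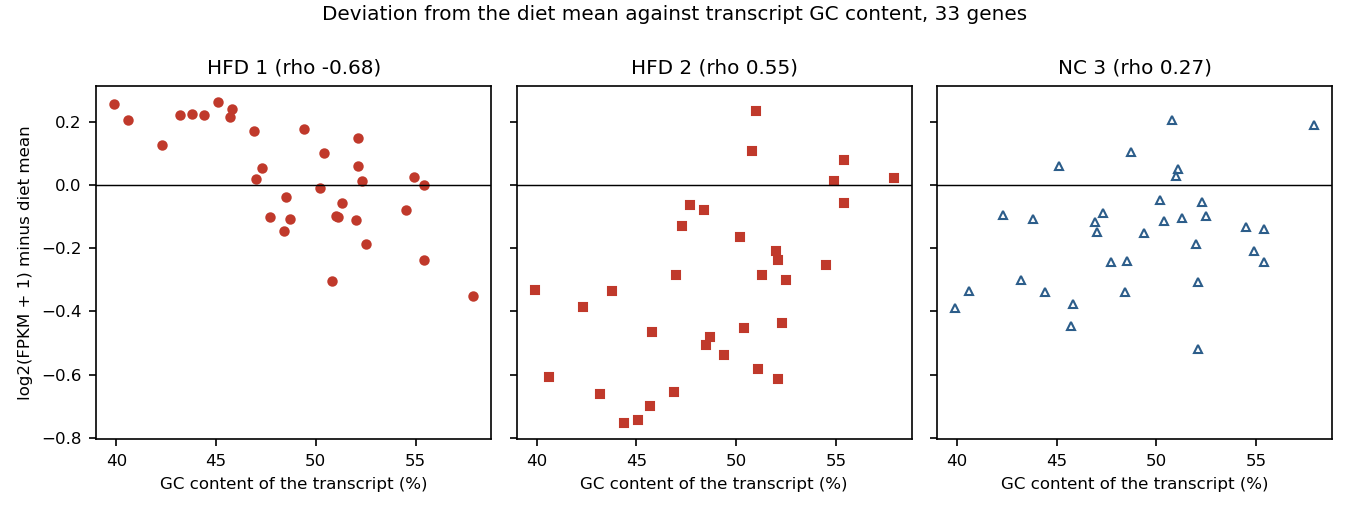
Deviation from the diet mean on log2(FPKM + 1) against the GC content of the longest transcript (%) for the 33 genes in HFD 1, HFD 2 and NC 3. Deviations run down with GC content in HFD 1 (rho −0.68) and up in HFD 2 (rho 0.55) and, less steeply, in NC 3 (rho 0.27).

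After a correction of each library for GC content, which was chosen after seeing the data, the median deviation of the 33 genes in HFD 2 was −0.27, and 29 of the 33 lay below the diet mean. With that correction 25 of the 33 genes were lower on HFD, with a median log2 fold change of −0.12, and 0 passed the test. By limma, 2 of the 33 then had an unadjusted p under 0.05, beside 674 of all 10774 genes tested in that fit. With the correction the difference between the diets was −0.36 in Mdh1 over Mdh2 and 0.29 in Idh2 over Idh3a, where it was −0.26 and 0.21 without it. That in Gpt over Gpt2 was −0.53 with the correction and −0.59 without it. Its exact permutation p was 0.1, the smallest possible, with the correction and 0.3 without it. The 6 erythroid markers, mostly globin genes, summed to 7428, 13370 and 1241 FPKM in the HFD libraries, against 5742, 8295 and 2025 FPKM in the NC libraries. The 10 endothelial markers summed to 1672, 2023 and 1047 FPKM in the HFD libraries, against 1370, 980 and 872 FPKM in the NC libraries, and none was listed at 0. Fabp4, which adipocytes also express, was the largest part of that sum, at 1228, 1368 and 611 FPKM on HFD, against 878, 538 and 423 FPKM on NC. Egfl7 was at 137, 344 and 166 FPKM on HFD, against 157, 193 and 229 FPKM on NC. Fabp4, Egfl7, Cdh5, Tie1 and Esam were highest in HFD 2. Pecam1, at 76.6, 50.1 and 68.8 FPKM on HFD, against 59.8, 33.9 and 41.3 FPKM on NC, was highest in HFD 1. Kdr, Tek, Emcn and Cldn5 were highest in NC 1, so the list did not move as 1 in HFD 2. HFD 2 was the highest library in the erythroid sum, and the part of erythroid and endothelial RNA in the HFD 2 values was not tested.

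Other genes of the pathway were counted by list, and 0 of any list passed the test. Of 14 genes of pyruvate entry, the pyruvate dehydrogenase complex with its kinases, phosphatases, carriers and pyruvate carboxylase, 7 were lower and 7 higher on HFD, with a median log2 fold change of −0.02. The 3 with the smallest p were Pdpr, a regulator of the pyruvate dehydrogenase phosphatase (0.35), the kinase Pdk4 (0.61) and Pcx, the pyruvate carboxylase that makes oxaloacetate (−0.21). Of the 4 genes of propionyl-CoA entry, which leads to succinyl-CoA, 3 were lower and 1 higher, with a median of −0.11.

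Of 7 genes of glutamine, glutamate and aspartate supply 5 were tested, and 4 of these were higher on HFD, with a median log2 fold change of 0.17. Glul, the glutamine synthetase, was at 73.5, 57.5 and 94.0 FPKM in the HFD libraries, against 49.2, 53.7 and 42.7 FPKM in the NC libraries. All HFD libraries lay above all NC libraries, HFD 2 included. Its log2 fold change was 0.59 (SE 0.23, limma unadjusted p = 0.0217), and it did not pass the adjusted threshold. Of the 8 linked enzymes 5 were lower and 3 higher, with a median of −0.10. Acly, which splits citrate in the cytosol for lipid synthesis, was at 8.89, 9.36 and 9.64 FPKM on HFD, against 7.36, 4.68 and 7.63 FPKM on NC, and the diets did not overlap (log2 fold change 0.47, SE 0.23, limma unadjusted p = 0.0640).

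Some of the values could hold reads of other genes. Near-identical copies, at least 95% identical over at least 300 bases, were found for 4 of the 33 genes, Glud1, Got2, Me1 and Suclg2, whose levels are uncertain to that extent. Of the 6 copies 3 were in the table, at no more than 0.235 FPKM in any library. Exons of 9 of the 33 genes overlap another gene on the opposite strand, and the sources used here do not state how strand was used. The most abundant of these neighbours were Nop56 beside Idh3b, at up to 20.8 FPKM, Cpsf7 beside Sdhaf2, at up to 12.2 FPKM, and Wdpcp beside Mdh1, at up to 1.36 FPKM. Without strand, reads of such a pair could not be told apart where the exons overlap.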

How the data were processed

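Total RNA of hearts was extracted with Trizol and made into libraries with a VAHTS mRNA-seq kit, per the labels' protocols. The deposited table holds FPKM values per gene and library, computed by the authors. The submitters' processing notes list HISAT2 2.2.1 and HTSeq 0.13.5 beside mm10 as the genome build, with Trimmomatic 0.38, FastQC 0.11.9, DESeq2 1.18.1 and R 3.4.1, and give none a role. The sources used here do not give the program that made the FPKM values or the handling of strand. Steps of 1 read were looked for among genes under 0.3 FPKM: 2.40 to 4.95% of ratios between libraries lay within 0.02 (log2) of the commonest ratio, and counts of reads could not be recovered from them, so a count test was not used.

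Of 23808 gene identifiers 23718 were paired with a symbol and 90 were not. On log2(FPKM + 1), a scale that understates changes at low levels, all genes averaging 1 FPKM or more were fitted together, without covariates, with limma 3.58.1 in R 4.3.3 (mean-variance trend, two-sided, Benjamini-Hochberg over 11456 genes, threshold 0.05). The fit and the permutation test were first tested on simulated data. Fold changes are HFD minus NC. Among the 33 genes, statistics are printed in full for those with an unadjusted p of at most 0.05, those whose diets did not overlap, the 4 genes with the smallest p in each direction and the most abundant gene of each role. The 33 genes, their roles and the other lists were chosen with earlier results of these data known. Of the genes in the other lists, 2 are not reported here by name. Ratios were compared on log2(FPKM + 1) with exact permutation tests.

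Coordinates, GC content of the longest transcript (33 of 33 genes, 94.1% of tested genes) and overlaps come from GENCODE M21 (GRCm38, mm10), copies from blastn 2.17.0, and promoters from RefSeq (GRCm38.p6). Alternatives were pseudocounts of 0.1 and 5, a minimum of 5 FPKM or no filter, 3 scalings between libraries, a fit without trend, library weights, a replicate block, each library left out and a threshold of 0.1. A lowess correction for GC content, alone and with the replicate block, was added after seeing the data.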

Additional observations from a re-analysis of the deposited data

How the results depend on the processing

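In the all-genes comparison by limma, 0 genes passed the threshold, with 415 at an unadjusted p of 0.05. The count was 73 with a replicate block, 1 with the GC correction and the replicate block together, and 0 to 1 when single libraries were left out (1 without NC 2). None of these was among the 33 genes, of which 0 passed under every alternative run. The labels do not say that equal replicate numbers mark a shared batch or litter. Correlations of deviations between equal numbers were 0.19, 0.09 and 0.28, not all over 0.1. HFD 1 correlated best with NC 2 and HFD 2 with NC 3, so the numbers were not taken to pair the libraries. In this balanced layout a replicate block cannot change a fold change, so the paired fit bears only on standard errors and p-values.

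When single libraries were left out, the number of genes lower on HFD ranged from 14 (without HFD 2) to 30 (without HFD 3) of 33. Their median log2 fold change ranged from −0.24 to 0.02. The median over all tested genes ranged from −0.11 (without HFD 3) to 0.05 (without HFD 1). Over the same exclusions the log2 fold change of Sdhaf4 ranged from −0.41 to 0.015, that of Sdha from −0.16 to 0.36 and that of Aco1 from −0.0021 to 0.27. Gpt, Idh1, Mdh1, Mdh2, Me2, Me3, Pck2 and Sdhb kept their sign under the alternatives run, and Me2 and Pck2 were not tested with a minimum of 5 FPKM. The replicate block, the other filters and the fit without trend cannot change these fold changes, so they do not test the sign. The log2 fold change of Me2 was −0.61 with a pseudocount of 0.1 and −0.15 with 5. The difference in Mdh1 over Mdh2 ranged from −0.47 to 0.060, that in Idh2 over Idh3a from −0.16 to 0.41, that in Got1 over Got2 from −0.10 to 0.056 and that in Sucla2 over Suclg2 from −0.080 to 0.013, and the last was 0.035 after quantile normalization. The cause of these changes of sign was not tested. With 3 libraries a diet and unknown depth, the precision of single values is not known, and differences smaller than the 95% intervals were not detectable here.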

Other observations

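Regulators of mitochondrial genes were not lower as a group. Of the 10 listed, 9 were tested, and 4 were lower and 5 higher on HFD, with a median log2 fold change of 0.10 and 0 past the limma threshold. Ppargc1a, the coactivator of mitochondrial biogenesis, was at 4.94, 3.83 and 8.74 FPKM in HFD libraries 1, 2 and 3, against 4.71, 3.88 and 3.97 FPKM in NC libraries 1, 2 and 3. Its log2 fold change was 0.34 (SE 0.27, limma unadjusted p = 0.238), and the diets overlapped. Esrrb, an oestrogen-related receptor, was at 2.35, 2.36 and 2.38 FPKM in the HFD libraries, against 2.08, 1.64 and 2.32 FPKM in the NC libraries, and the diets did not overlap, as in 3.25% of all tested genes in this direction. Its log2 fold change was 0.16 (SE 0.21, limma unadjusted p = 0.454), within the spread between libraries.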
